A study of Saccharomyces cerevisiae with 7 samples.

Results

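Mutations at the neighbouring Prp8 residues N1869 and V1870 were set against mutations at residue V1860 of the same protein, by sequencing the lariats that splicing leaves behind in budding yeast. The first side held 3 samples: prp8-N1869D, a second prp8-N1869D sample and prp8-V1870N. Values of both prp8-N1869D samples are given with that of the first sample before that of the second. The other side held 2 samples, prp8-V1860N and prp8-V1860D. These are 5 of the 6 samples of the series. The remaining sample, PRP8-WT, is 1 library and is given beside the values without entering a test. Sides were assigned from the labels alone.

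Prp8 is the large protein at the centre of the spliceosome. Its RNaseH-like domain lies next to the RNA that carries out splicing, and residues V1860, N1869 and V1870 lie in that domain. Splicing runs through 2 steps: the branch point adenosine first attacks the 5' splice site, which closes the intron into a lariat, and the exons are then joined. The debranching enzyme Dbr1 normally opens the lariat, so that cells without DBR1 keep it. A read that crosses the branch point therefore records which 5' splice site was joined to which branch nucleotide.

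All strains, PRP8-WT included, carried dbr1::Kan and a deletion of the chromosomal gene (prp8Δ::LYS2), and lived on a PRP8 allele on the plasmid pRS313. They were of mating type a with his3, leu2, ura3 and lys2 markers, and were grown in rich medium. Each mutant is a single strain, and both prp8-N1869D samples come from the same one. The series' design text calls the second prp8-N1869D sample a biological one. Its 2 technical libraries were summed and count as 1 sample. For the other mutants allele and library cannot be told apart, and each side mixes different substitutions. The p-values below measure the spread between these samples. The alleles themselves cannot be checked here, since the deposited counts hold no sequence of PRP8.

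The libraries held 1222720, 1366461 and 1931509 lariat reads in both prp8-N1869D samples and prp8-V1870N. They held 2288752 and 2174942 in prp8-V1860N and prp8-V1860D, with 3517283 in PRP8-WT. Of these, 993122 to 1550133 reads on the side of N1869 and V1870, and 1949898 and 1842086 on the side of V1860, fell on 280 annotated introns of 270 genes. Every sample with a mutation at N1869 or V1870 was thus shallower than both of V1860.

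Short introns yielded relatively more annotated lariat reads in the N1869 and V1870 mutants than in the V1860 mutants, and long introns, most of them in ribosomal protein genes, relatively fewer. Of 264 introns with enough reads to test, 30 (11.4%) were higher and 26 (9.85%) lower at an adjusted p under 0.05 (edgeR quasi-likelihood test, Benjamini-Hochberg). In 96 introns (36.4%) all 3 samples of N1869 and V1870 lay above both of V1860, and in 77 (29.2%) all 3 lay below both. Levels are given as CPM, that is reads per 1000000 annotated reads after TMM scaling of the library sizes. They are relative within a library, so that a gain of some introns lowers others. Transcription, splicing and recovery of the lariat cannot be told apart in them. Without prp8-V1860N or without prp8-V1860D, 0 introns were called in either direction. Without prp8-V1870N, 84 were higher and 60 lower, and without the second prp8-N1869D sample 6 were higher and 8 lower. Without the first prp8-N1869D sample 16 were higher and 13 lower, and with its samples summed, so that each strain counts once, 15 and 16.

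Length from the 5' splice site to the branch point separated the calls. Among 136 tested introns of up to 150 nt, 28 were called higher and 0 lower, with a median log2 fold change of 0.52 against 0.15 over all introns tested. Among 29 introns of over 150 and up to 300 nt, 0 were higher and 5 lower, with a median of -0.34. Among 99 introns over 300 nt, 2 were higher and 21 lower, with a median of -0.41.

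**Figure D1:**
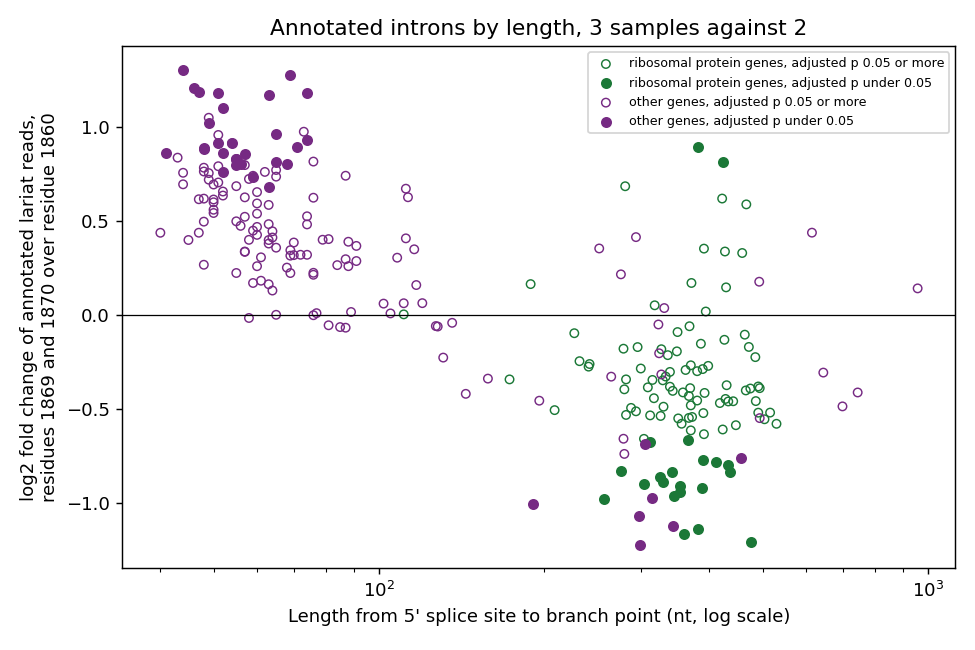
Each point is 1 of 264 annotated introns: its length from 5' splice site to branch point in nt (log axis) against the log2 fold change of its annotated reads, N1869 and V1870 over V1860; filled points passed an adjusted p of 0.05. The 28 called introns of up to 150 nt lie above 0, and 26 of the 28 called introns over 150 nt lie below it.

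Ribosomal protein genes, whose introns are among the longest in yeast, had 2 introns higher and 19 lower of 103 tested, with a median log2 fold change of -0.40. Of these 103 introns, 84 were over 300 nt, so that gene class and length can hardly be separated by them. The 26 introns over 150 nt of other genes had 0 higher and 7 lower, with a median of -0.38. The 135 introns of up to 150 nt in other genes had 28 higher and 0 lower, with a median of 0.52. The direction thus followed length also outside the ribosomal protein genes. Non-overlapping introns showed the same division: 87 higher and 1 lower up to 150 nt, against 6 higher and 60 lower over 300 nt.

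The intron of COF1, which encodes the actin-severing protein cofilin, measures 46 nt from 5' splice site to branch point. It had 662, 964 and 413 CPM in both prp8-N1869D samples and prp8-V1870N, against 317 and 271 in prp8-V1860N and prp8-V1860D, with 198 in PRP8-WT. The 3 samples lay above the other side, with prp8-V1870N closest to it. Its log2 fold change was 1.21 ± 0.30 (SE, n = 3 and 2; edgeR adjusted p = 0.00188). The largest increase was in YCL002C, an uncharacterised gene with a 44 nt stretch, at 91.8, 93.1 and 58.6 CPM in both prp8-N1869D samples and prp8-V1870N, against 27.7 and 37.7 in prp8-V1860N and prp8-V1860D (19.2 in PRP8-WT). Its log2 fold change was 1.30 ± 0.35 (edgeR adjusted p = 0.00432). Their splice sites, shown because they stand for the short introns that rose, are given 5' to 3' with the first 6 intron bases or the branch region in capitals (R64, minus strand; COF1 at chrXII:40389-40406 and chrXII:40348-40363, YCL002C at chrIII:111622-111639 and chrIII:111583-111598).
COF1 5' splice site: atctggGTATGCtaaatt
COF1 branch point: caatTACTAACtaatt
YCL002C 5' splice site: ttatcaGTATGCataatt
YCL002C branch point: gtttGACTAACtaagg

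PAL2, which works in endocytosis, had 657, 1120 and 505 CPM in both prp8-N1869D samples and prp8-V1870N, against 339 and 289.6 in prp8-V1860N and prp8-V1860D (254 in PRP8-WT). Its log2 fold change was 1.27 ± 0.29 (edgeR adjusted p = 0.000741). MUD1 encodes a protein of the U1 particle, which recognises the 5' splice site. Its own intron had 131, 184 and 148 CPM in the 3 samples of N1869 and V1870, against 65.5 and 86.7 in prp8-V1860N and prp8-V1860D (70.8 in PRP8-WT), a log2 fold change of 1.02 ± 0.33 (edgeR adjusted p = 0.0158). All 3 samples again lay above both, and PRP8-WT lay within the range of V1860. The other introns among the 10 largest increases were in MRX20 (log2 fold change 1.19), YNL050C (1.18), RCF3 (1.18), the meiotic recombinase gene DMC1 (1.17), the mitotic exit gene MOB1 (1.10) and the histone chaperone subunit gene HPC2 (0.96). Their edgeR adjusted p-values ran between 0.00626 and 0.0284, and in each of them the samples of the sides did not overlap.

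COX4, which encodes a subunit of cytochrome c oxidase and has its intron in the 5' untranslated region, fell most. It had 476, 252 and 518 CPM in both prp8-N1869D samples and prp8-V1870N, against 974 and 964 in prp8-V1860N and prp8-V1860D, with 1341 in PRP8-WT. The second prp8-N1869D sample was lowest and PRP8-WT highest. The log2 fold change was -1.22 ± 0.28 (SE, n = 3 and 2; edgeR adjusted p = 0.000594). RPL33B, for a protein of the large ribosomal subunit, had 2987, 1229 and 3810 CPM in the same 3 samples, against 6865 and 5500 in prp8-V1860N and prp8-V1860D (7142 in PRP8-WT), a log2 fold change of -1.21 ± 0.25 (edgeR adjusted p = 0.000383).

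RPS9B, for a protein of the small subunit, had 2294, 2044 and 3871 CPM in both prp8-N1869D samples and prp8-V1870N, against 6095 and 5946 in prp8-V1860N and prp8-V1860D (7700 in PRP8-WT). Its log2 fold change was -1.14 ± 0.25 (edgeR adjusted p = 0.000501). Its splice sites (R64, plus strand, chrII:604509-604526 and chrII:604887-604902) and those of COX4 (minus strand, chrVII:150514-150531 and chrVII:150220-150235) stand here for the long introns that fell, with capitals as above.
RPS9B 5' splice site: tgccaaGTACGTattaga
RPS9B branch point: ttttGACTAACaagaa
COX4 5' splice site: tgaaatGTATGTtataat
COX4 branch point: agtaTACTAACaatac

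Both the intron that rose most and RPS9B have a branch region that departs from TACTAAC in its first base, so this variant stands on either side. The other introns among the 10 largest decreases were in RPS18B (log2 fold change -1.17), the chromatin protein gene NHP6B (-1.12), the pyrimidine synthesis gene URA2 (-1.07), QCR9 for a subunit of respiratory complex III (-1.0), RPS14A (-0.98), the vesicle transport GTPase gene ARF2 (-0.97) and RPL6B (-0.96). Their edgeR adjusted p-values ran between 0.000501 and 0.00656. In each of these 7 introns all 3 samples of N1869 and V1870 lay below both of V1860. Many ribosomal protein genes, and ARF2 and NHP6B, have a close paralogue in yeast, and how reads shared by paralogues were assigned is not given in the sources used here.

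**Figure D2:**
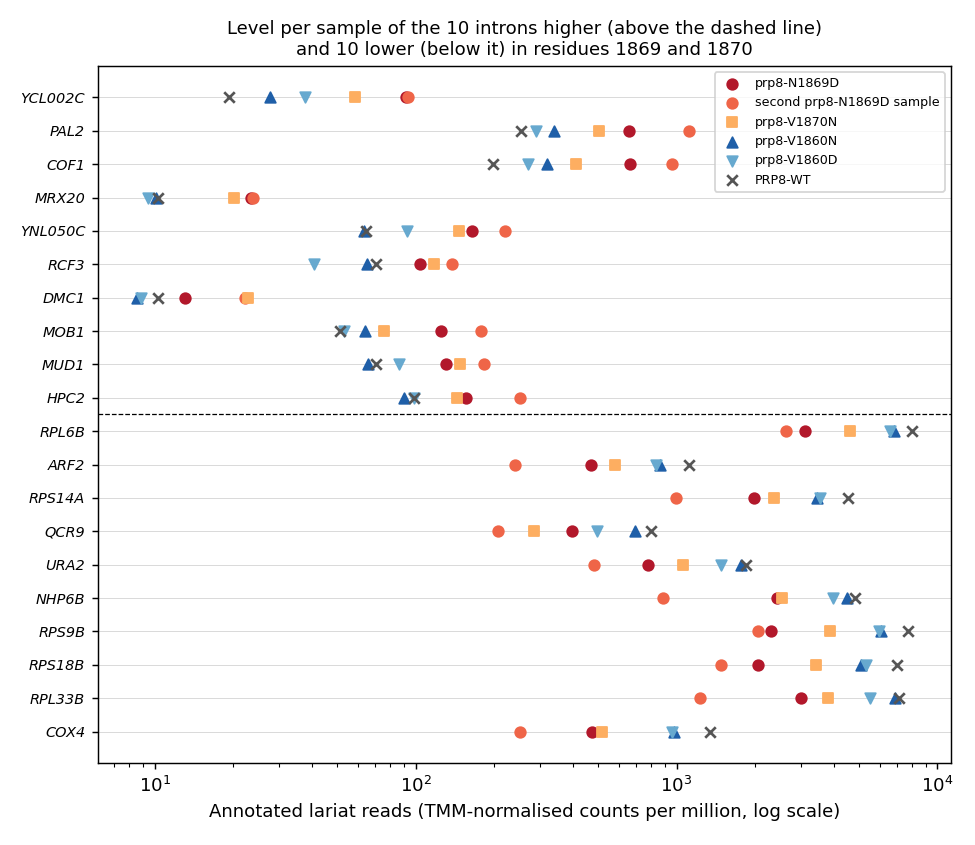
Levels of annotated lariat reads (TMM-normalised CPM, log axis) in each sample for the 10 introns with the largest increase (above the dashed line) and the 10 with the largest decrease (below it); each symbol is 1 sample. The samples of the sides do not overlap in any of the 20 introns, and prp8-V1870N often lies nearest to V1860.

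Some ribosomal protein introns went against their class. RPS24A, with 423 nt to the branch point, had 41863, 54494 and 32264 CPM in both prp8-N1869D samples and prp8-V1870N, against 23006 and 25851 in prp8-V1860N and prp8-V1860D (15877 in PRP8-WT), a log2 fold change of 0.81 ± 0.29 (edgeR adjusted p = 0.0311). RPS14B, whose product represses the splicing of its own transcript, had 4164, 4578 and 3353 in the same 3 samples, against 2178 and 2166 in prp8-V1860N and prp8-V1860D (1692 in PRP8-WT). Its log2 fold change was 0.89 ± 0.26 (edgeR adjusted p = 0.00804). These were the 2 ribosomal protein introns called higher, and both had non-overlapping samples. Its paralogue RPS14A fell: 1981, 993 and 2355 CPM on the side of N1869 and V1870, against 3455 and 3548 on the side of V1860, a log2 fold change of -0.98 ± 0.26 (edgeR adjusted p = 0.00365). The paralogues' introns thus changed in opposite directions. The difference between the paralogues was not itself tested.

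Of the 5 introns with the most reads, RPS24A alone passed the test. The intron of SNR17A, which encodes the U3 RNA of ribosome assembly, had 51346, 39205 and 46950 CPM in both prp8-N1869D samples and prp8-V1870N, against 66141 and 56484 in prp8-V1860N and prp8-V1860D (71778 in PRP8-WT). Its samples did not overlap, at a log2 difference of -0.42 ± 0.29 (edgeR adjusted p = 0.248). RPS30B likewise had non-overlapping samples, with 31748, 15049 and 33241 against 41913 and 39755 CPM and a log2 difference of -0.61 ± 0.28 (edgeR adjusted p = 0.0828). The proteasome gene PRE3 and RPL2A overlapped, with adjusted p-values of 0.250 and 0.998. YML6 was the single intron past the threshold whose samples overlapped: it had 1119, 1199 and 583 CPM on the side of N1869 and V1870, against 606 and 409 on the side of V1860.

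Wild-type levels lay with V1860 in most calls, and over all introns tested PRP8-WT was also nearer to both V1860 samples than to the others. For the 30 introns called higher, PRP8-WT lay within or below the V1860 samples in 25 and between the sides in 5. For the 26 called lower it lay within or above the V1860 samples in 26. Relative to the mean of the V1860 samples, the median log2 level of the 30 higher introns was 0.85 in the first prp8-N1869D sample, 1.21 in the second and 0.57 in prp8-V1870N, with -0.30 in PRP8-WT. For the 26 lower introns it was -0.97, -1.35 and -0.50 in those samples, with 0.27 in PRP8-WT. The second prp8-N1869D sample lay farthest out and prp8-V1870N nearest. These levels of the mutants describe introns chosen by this contrast.

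Over all 264 introns, prp8-V1870N was closer to the V1860 samples than to the other samples of its own side. Its median absolute log2 difference was 0.358 from prp8-N1869D and 0.411 from the second prp8-N1869D sample, against 0.263 from prp8-V1860N and 0.256 from prp8-V1860D. The prp8-N1869D samples differed by 0.292 from each other, prp8-V1860N and prp8-V1860D by 0.182, and the technical libraries by 0.206. PRP8-WT differed by 0.657, 0.842 and 0.405 from both prp8-N1869D samples and prp8-V1870N, and by 0.161 and 0.235 from prp8-V1860N and prp8-V1860D. Of the 173 introns whose sides did not overlap, prp8-V1870N was the sample nearest to V1860 in 149, the first prp8-N1869D sample in 22 and the second in 2.

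The calls were also counted by splice site sequence. Of 210 introns that open with GTATGT, 18 were higher and 21 lower, and of 54 with another opening 12 were higher and 5 lower, with median log2 fold changes of 0.14 and 0.24. Outside the ribosomal protein genes, 11 of 30 introns without GTATGT were higher and 1 lower, with a median of 0.66, against 17 higher and 6 lower of 131 with it, with a median of 0.40. Of 220 introns with TACTAAC at the branch point, 22 were higher and 25 lower. Their median of 0.03 turned to -0.06 with DESeq2 size factors. Of 44 with another branch region, 8 were higher and 1 lower, with a median of 0.33. No test of a difference between these classes was made.

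Among the small functional lists, calls were few. The counts below stand beside 11.4% higher and 9.85% lower over all introns tested, and beside 28 higher of the 136 introns of up to 150 nt. Of 5 tested meiotic genes, 2 were higher and 0 lower, with a median log2 fold change of 0.81. Besides DMC1, this was REC107, needed for meiotic DNA breaks (0.81, edgeR adjusted p = 0.0311), while the checkpoint gene PCH2 had 0.82 (0.0675) and REC102 0.79 (0.0675). Of 11 actin and tubulin genes, 2 were higher and 0 lower: COF1 and the prefoldin subunit gene GIM5 (0.76, edgeR adjusted p = 0.0311). Its partner GIM4 had 0.59 (adjusted p = 0.0764). Of 11 ubiquitin and proteasome genes 1 was higher, UBC9 for the SUMO-conjugating enzyme (0.89, edgeR adjusted p = 0.00751), and DCN1 had 0.72 (adjusted p = 0.0547).

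The list made for splicing and cap-binding genes held introns of YSF3, LSM2, LSM7, MUD1, YRA1, DBP2 and SUS1, and no cap-binding gene. Not all of these are genes of the splicing machinery: SUS1 encodes a subunit of the SAGA coactivator and YRA1 an mRNA export factor. Of its 8 introns 2 were higher, MUD1 and the first intron of SUS1 (log2 fold change 0.91, edgeR adjusted p = 0.0101). Of 15 tested introns in genes with 2 introns, 3 were higher and 0 lower: that of SUS1, the second intron of the methyltransferase gene EFM5 (0.80, edgeR adjusted p = 0.0169) and the second intron of the proton pump gene VMA9 (0.68, adjusted p = 0.0404). Of 14 vesicle traffic introns 0 passed the test, although 9 had all 3 samples above both, as did 96 of all 264 introns (36.4%) and 87 of the 136 of up to 150 nt. ERD2, the receptor that returns proteins to the endoplasmic reticulum, had 0.76 (edgeR adjusted p = 0.0692) and the SNARE gene SNC1 0.56 (0.140). Of 7 tested nuclear genes of mitochondrial proteins, 2 were lower, COX4 and QCR9, both described above. The oxidase gene ERV1 had 0.74 (edgeR adjusted p = 0.0938) and AIM11 0.68 (0.0927).

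Of 10 introns in genes that act back on their own splicing or expression, 1 was higher, RPS14B, and 1 lower, RPS9B. RPL28 had a log2 difference of 0.59 (edgeR adjusted p = 0.0885), RPL22B -0.66 (0.0547) and the mRNA export factor gene YRA1 -0.41 (0.235). Of 10 tested introns in genes that host small nucleolar RNAs, 0 passed, with 0.41 in IMD4 (edgeR adjusted p = 0.244) and 0.22 in TEF4 (0.477). Every tested intron of these genes was counted, whether or not it is the one that holds the small RNA. Of the 2 U3 genes 0 passed, and SNR17B had 0.16 (adjusted p = 0.623).

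Aberrant 5' splice sites are here, by the definition in the file headers, those over 5 and under 1000 nt away from the annotated site that join its branch point within 2 nt. Their share of aberrant plus annotated reads was higher in the N1869 and V1870 mutants in 14 of 96 tested introns (14.6%) and lower in 5 (5.21%). The test was edgeR's quasi-likelihood test of aberrant against annotated reads within a sample. All 3 samples lay above both in 35 introns (36.5%) and below both in 19 (19.8%). Without prp8-V1860N or without prp8-V1860D, 0 shares were called, and without the second prp8-N1869D sample 12 were higher and 2 lower. Limma on the log2 ratios called 1 higher and 2 lower. In 13 of the 14 introns with a higher share, the annotated reads of the same intron lay lower in all 3 samples than in both of V1860, and 5 of those introns were called lower. The share can move with either term. Aberrant reads scaled to the annotated reads of the library were also non-overlapping in the same direction in 12 of the 14, all but RPL37B and RPL33B.

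The introns that carried the changes have aberrant sites close to the yeast consensus or far from it, shown here beside their annotated sites with the first 6 bases of the intron in capitals (R64). RPL16B lies on chrXIV:494962-494979 and chrXIV:494621-494638, NHP6B on chrII:426862-426879 and chrII:426619-426636, and RPS26A on chrVII:148955-148972 and chrVII:148756-148773, all on the minus strand. LSM2 lies on chrII:170671-170688 and chrII:170615-170632, TAN1 on chrVII:62126-62143 and chrVII:62082-62099, RPL6B on chrXII:1028863-1028880 and chrXII:1027920-1027937, and ECM33 on chrII:393175-393192 and chrII:393104-393121, all on the plus strand.
RPL16B annotated: ttgatgGTACGTaaaaaa
RPL16B aberrant: caaaaaGTAATGgtaact
NHP6B annotated: cgcaaaGTATGTaaggcg
NHP6B aberrant: caagttGTAAGTcaggac
RPS26A annotated: taagtaGTATGTtaacga
RPS26A aberrant: cccatcGTATGCaatgta
LSM2 annotated: gtagagGTATGTtcataa
LSM2 aberrant: tagcaaGTATGCttttct
TAN1 annotated: aagaaaGTATGTctgtct
TAN1 aberrant: aaaaacGTAACCgtaatg
RPL6B annotated: caacaaGTATGTgtaaag
RPL6B aberrant: cgaatgGTATACtctttt
ECM33 annotated: tagctgGTATGTacacat
ECM33 aberrant: attttaCTATTAttccgc

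The NHP6B intron, in the 5' untranslated region, had the largest aberrant share among the called introns in each of the samples of N1869 and V1870. It was 25.3%, 50.2% and 24.5% in both prp8-N1869D samples and prp8-V1870N, against 12.8% and 13.4% in prp8-V1860N and prp8-V1860D, with 13.6% in PRP8-WT. The shares rest on 878, 1048 and 1264 aberrant reads, against 1242 and 1044. Every sample of N1869 and V1870 lay above 23.3%, the lowest lower bound of their exact 95% binomial intervals, and the highest upper bound of V1860 was 14.2%. These intervals cover counting error only. The log2 ratio was 1.66 ± 0.43 (SE; edgeR adjusted p = 0.00470). The main site lies 243 nt inside the intron, and the annotated reads of NHP6B were lower at the same time.

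RPL16B, with a main aberrant site 341 nt inside its intron, had 6.16%, 9.40% and 4.48% in both prp8-N1869D samples and prp8-V1870N, against 2.04% and 1.56% in prp8-V1860N and prp8-V1860D, with 2.98% in PRP8-WT. Its log2 ratio was 1.91 ± 0.43 (edgeR adjusted p = 0.00130). PRP8-WT lay between the sides. With 5' splice sites from 1 nt away counted as aberrant too, the ratio was 0.56 and was not called (edgeR adjusted p = 0.124). RPS26A, with its main site 199 nt inside, had 4.76%, 5.74% and 4.06% in the same 3 samples. The shares were 1.97% and 2.17% in prp8-V1860N and prp8-V1860D and 2.25% in PRP8-WT. Its log2 ratio was 1.26 ± 0.39 (edgeR adjusted p = 0.0182). RPS29A, with its main site 391 nt inside, had 0.494%, 0.561% and 0.380%, against 0.117% and 0.108% and 0.199% in PRP8-WT. Its log2 ratio was 2.06 ± 0.45 (edgeR adjusted p = 0.00116). In these 3 introns, NHP6B and RPL33B, the 95% intervals of all 3 samples lay above those of both V1860 samples. RPL33B had 0.716%, 1.17% and 0.611%, against 0.263% and 0.235% and 0.431% in PRP8-WT, at a site 134 nt inside.

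A few introns had their main site upstream of the annotated one. RPL6B, with its main site 943 nt upstream, had 0.361%, 0.227% and 1.34% in both prp8-N1869D samples and prp8-V1870N. The shares were 0.0468% and 0.0803% in prp8-V1860N and prp8-V1860D, and 0.0222% in PRP8-WT. These are 12, 7 and 96 aberrant reads, against 6 and 9, and prp8-V1870N held most of them. The log2 ratio was 3.23 ± 0.61 (edgeR adjusted p = 0.000304). ECM33, for a cell wall protein, had 0.520%, 1.05% and 0.994%, against 0.273% and 0.201% and 0.0396% in PRP8-WT. Its main site, 71 nt upstream, does not open with GT and held 76.2% of its aberrant reads over the 5 samples. The log2 ratio of ECM33 was 1.84 ± 0.45 (edgeR adjusted p = 0.00274). SNR17A rested on 4, 3 and 12 aberrant reads, against 2 and 2. Its main site, 270 nt upstream, held 3, 3 and 6 of these, against 1 and 1, with 0 of 8 in PRP8-WT.

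The other higher shares were in RPL37B (log2 ratio 1.79), RPL36A (1.80), YRA1 (2.38), RPS29B (1.95), RPL21B (1.58) and RPL43B (1.86), with main sites 36 to 660 nt inside the intron. YRA1 had 5, 13 and 7 aberrant reads in both prp8-N1869D samples and prp8-V1870N, against 4 and 2 in prp8-V1860N and prp8-V1860D, so its 95% intervals overlapped. In PRP8-WT, the 14 higher shares lay within or below those of V1860 in 5 introns, between the sides in 8 and with N1869 and V1870 in 1, RPS29B.

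Lower shares occurred in 5 short introns, with main sites upstream of the annotated one. TAN1, needed for a tRNA modification, had 1.27%, 0.406% and 0.661% in both prp8-N1869D samples and prp8-V1870N, against 6.17% and 4.41% in prp8-V1860N and prp8-V1860D, with 2.19% in PRP8-WT. These are 5, 2 and 3 aberrant reads, against 25 and 15. The log2 ratio was -2.86 ± 0.62 (edgeR adjusted p = 0.00116), and the annotated intron of TAN1 was called higher. TFC3, for a subunit of transcription factor TFIIIC, had 0.130%, 0.0877% and 0.0645%, against 0.810% and 0.391% and 0.553% in PRP8-WT, a log2 ratio of -2.67 ± 0.64 (edgeR adjusted p = 0.00262). Its main site lies 67 nt upstream.

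LSM2, for a subunit of the ring that binds U6 RNA, had 1.38%, 1.22% and 2.0% in both prp8-N1869D samples and prp8-V1870N, against 3.96% and 3.07% in prp8-V1860N and prp8-V1860D, with 2.09% in PRP8-WT. The log2 ratio was -1.23 ± 0.45 (edgeR adjusted p = 0.0461), and the samples did not overlap. EPT1, for phospholipid synthesis, had a ratio of -1.65 (adjusted p = 0.0335) and YCL012C one of -2.48 (0.0436). For none of the 5 were the 95% intervals of the sides apart, with at most 35 aberrant reads in a sample of N1869 and V1870. Aberrant reads scaled to the annotated reads of the library were lower without overlap in all 5.

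**Figure D3:**
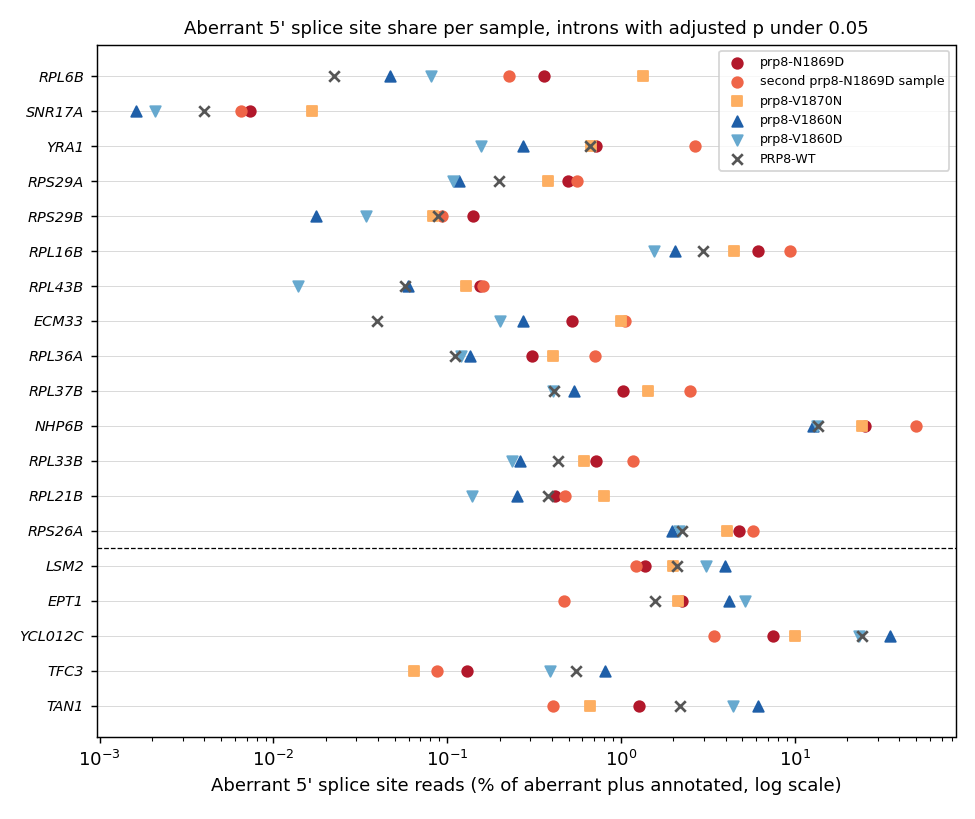
Aberrant share (% of aberrant plus annotated reads, log axis) in each sample for the 14 introns with a higher share (above the dashed line) and the 5 with a lower one (below it); each symbol is 1 sample. The 3 samples of N1869 and V1870 lie on one side of both V1860 samples in all 19 introns, and PRP8-WT often lies between.

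Position of the main aberrant site went along with direction. Of 62 introns whose main site lies inside the annotated intron, 11 were higher and 0 lower, 32 lay above without overlap and 2 below, and the median log2 ratio was 0.82 against 0.52 over all 96. Of 34 introns whose main site lies upstream, 3 were higher and 5 lower, 3 lay above without overlap and 17 below, and the median was -0.998. This split was chosen after the values were seen and has no test. It also coincides with length: of 70 introns over 150 nt 13 were higher and 0 lower, and of 26 up to 150 nt 1 was higher and 5 lower. Every tested intron over 150 nt with a main site inside, 61 in number, had a median of 0.82, and 25 short introns with a site upstream one of -1.05. A site inside the intron gives a shorter lariat than the annotated one, and a site upstream gives a longer one. RPL6B, ECM33 and SNR17A, the 3 higher shares with a main site upstream, thus had relatively more of the longer lariat at that site. The 11 with a main site inside had relatively more of the shorter one at theirs. Reads at the other aberrant sites of these introns were not split by length. The part of lariat length in the result was not tested.

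**Figure D4:**
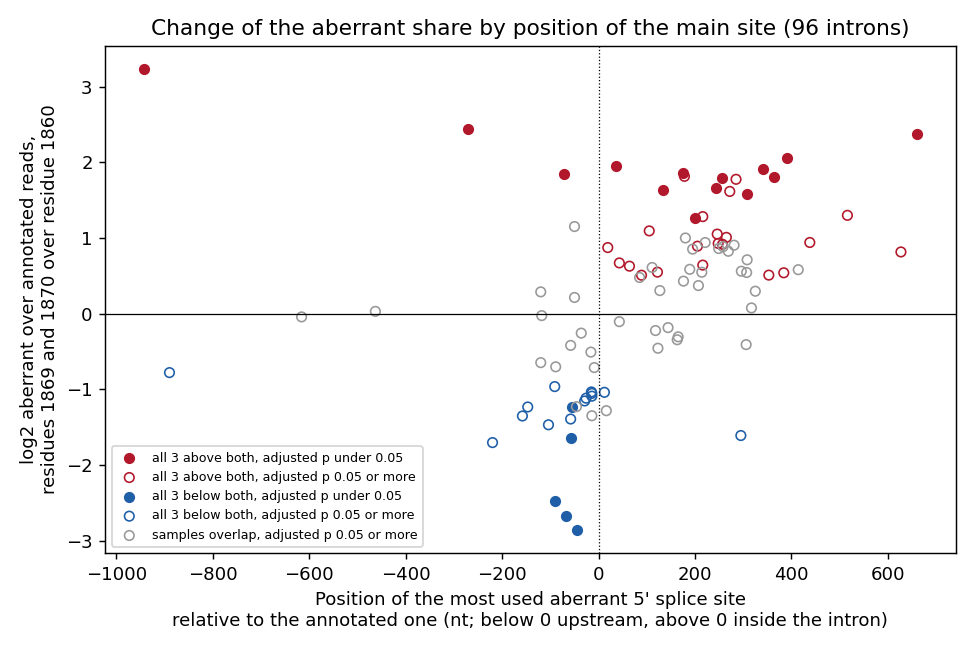
Each point is 1 of 96 introns: the position of its most used aberrant 5' splice site relative to the annotated one in nt against the log2 ratio of aberrant to annotated reads, N1869 and V1870 over V1860. Of the points right of 0 (sites inside the intron) 32 are non-overlapping and higher and 2 lower, and of those left of 0 (upstream) 3 are higher and 17 lower.

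By gene class, the counts stand beside 14.6% higher and 5.21% lower over all 96 introns, with 36.5% above and 19.8% below without overlap. Of 59 ribosomal protein introns 10 had a higher share and 0 a lower one, a share of higher calls close to that over all introns, with a median log2 ratio of 0.64. Of 37 other introns 4 were higher and 5 lower, with a median of -0.65. Of 8 introns in genes that act back on themselves, 1 was higher, YRA1, and 5 lay above without overlap. Of 9 introns in genes with 2 introns 0 were called and 4 lay below without overlap. Of 4 in genes that host small nucleolar RNAs 0 were called. Of 3 on the list made for splicing and cap-binding genes, YRA1 was higher and LSM2 lower.

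Among the introns with the most aberrant reads, most missed the threshold. RPL2B had 5.06%, 6.40% and 4.03% in both prp8-N1869D samples and prp8-V1870N, against 2.98% and 2.11% in prp8-V1860N and prp8-V1860D, with 3.41% in PRP8-WT (log2 ratio 1.05, edgeR adjusted p = 0.0544). Its 95% intervals were apart. The intron of GCR1, an activator of glycolytic genes, had mostly aberrant reads in every sample: 90.3%, 88.1% and 86.3%, against 82.1% and 79.7%, with 84.5% in PRP8-WT (log2 ratio 0.82, edgeR adjusted p = 0.194). The samples did not overlap. RPL22B had 25.4%, 37.3% and 26.8%, against 22.4% and 20.4%, with 25.5% in PRP8-WT (log2 ratio 0.63, edgeR adjusted p = 0.229). RPL40B and RPL22A also lay above without overlap, at ratios of 0.64 and 0.55 (edgeR adjusted p = 0.211 and 0.287). In PRP8-WT their shares were 3.97% and 8.14%. RPS22B intron 2 and RPL24B overlapped. RPS21B lay above without overlap, at 5.02%, 6.66% and 5.45% against 3.66% and 4.48% (log2 ratio 0.51, edgeR adjusted p = 0.317). Its share in PRP8-WT was 1.27%, below all 5 mutant samples.

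Single pairs of 5' splice site and branch nucleotide gave a further 3051 tested pairs outside the annotated ones. Of these, 177 (5.80%) were higher and 21 (0.688%) lower in the N1869 and V1870 mutants (edgeR quasi-likelihood test, adjusted over all 3967 pairs tested). In 733 (24.0%) all 3 samples lay above both of V1860, and in 505 (16.6%) below both. Over all 3967 pairs, 177 (4.46%) were higher and 66 (1.66%) lower, and 884 (22.3%) and 858 (21.6%) did not overlap. The median pair differed by a log2 of 0.02. When pairs were scaled to total lariat reads in place of TMM, 255 were higher and 19 lower, and the median pair moved to 0.23. Without prp8-V1870N, 281 were higher and 204 lower. Without prp8-V1860N 93 were higher and 5 lower, and without prp8-V1860D 84 and 20. The lower count was also 29 without the second prp8-N1869D sample and 42 without the first.

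Pairs with no tie to an annotated intron whose ends lie over 1000 nt apart held 128 of the 177 higher calls. Of 808 such pairs tested, 128 (15.8%) were higher and 1 (0.124%) lower, and the median log2 fold change was 0.68. Samples lay above without overlap in 325 (40.2%) and below in 36 (4.46%). A pair entered the test with enough reads in 2 samples, so it could pass through its high side alone. Of the 128, 16 had 0 reads in both V1860 samples. With a filter of at least 2 reads, 0 pairs of any class were called, with 2801 higher and 5046 lower without overlap. The part of the filter in these counts was not tested. Among 233 pairs of over 200 and up to 1000 nt, 30 were higher and 1 lower, with a median of 0.17, and among 507 pairs of up to 200 nt, 12 were higher and 7 lower, with a median of 0.31. Of 916 tested pairs of annotated introns, 0 were higher and 45 lower, with a median of -0.12. Annotated reads tested per intron gave 30 higher and 26 lower, with a median of 0.15. Pair calls depended on the scaling: with total lariat reads in place of TMM, lower calls over all pairs went from 66 to 19. Mirror images, which are the same intron with its ends swapped on the opposite strand, went as the annotated pairs did, with 0 higher and 8 lower of 747.

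Aberrant sites as single pairs had 1 higher and 1 lower of 84, and other branch points of an annotated 5' splice site 1 higher and 1 lower of 221. Of 360 pairs whose 5' end lies 1 to 5 nt off an annotated 5' splice site 0 were higher and 1 lower. Of 91 mitochondrial pairs 5 were higher and 1 lower.

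**Figure D5:**
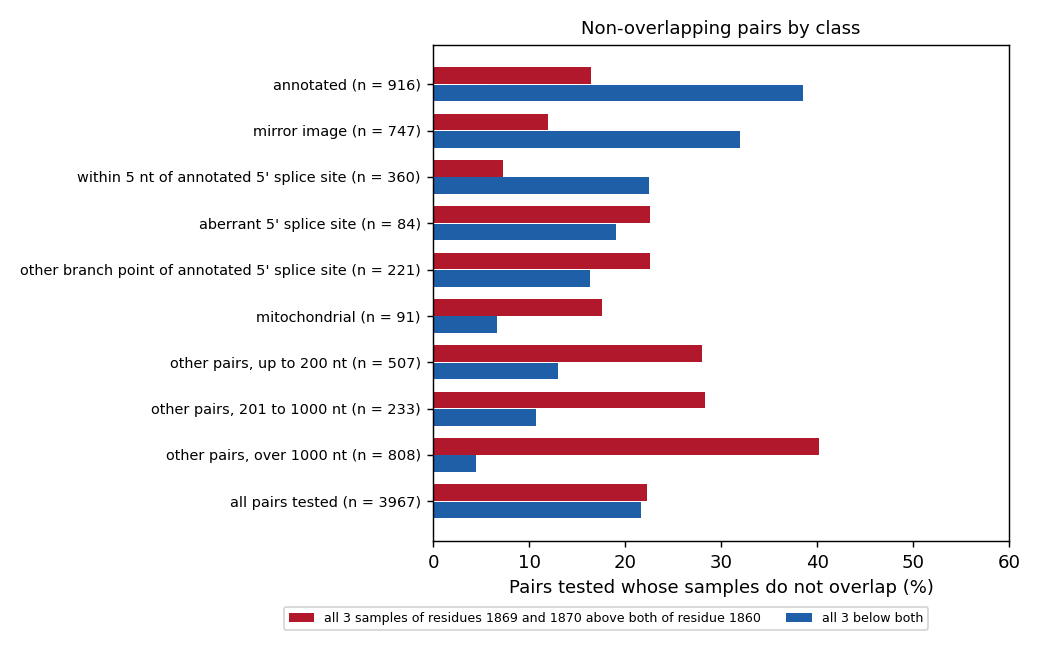
Bars give, for each class of pair, the percentage of tested pairs whose 3 samples of N1869 and V1870 all lie above (red) or all below (blue) both samples of V1860. Other pairs over 1000 nt apart have 40.2% above and 4.46% below, while annotated pairs have 16.5% above and 38.5% below. Only pairs that passed the filter on reads are counted, and a pair could pass it through its high side alone. Annotated reads counted per intron had 36.4% above and 29.2% below.

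The 128 long pairs lay on 15 chromosomes. Their median distance was 3164.5 nt and the largest 4996 nt, close to the largest in the whole table, 4999 nt. Of the 128, 87.5% opened with GT, and 82.3% of the 679 long pairs that were not called. Their branch nucleotide was A in 28.1%, against 34.3% of those not called and 58.6% of all 916 annotated pairs. Annotated pairs include branch nucleotides up to 2 nt from the annotated one. The annotated branch base itself is A in 279 of 280 introns. Only 1 of the 128 had both ends within 1 gene in sense and 5 in antisense. How strand was assigned is not stated in the sources used here.

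Together the 128 held 8435, 8628 and 18279 reads in both prp8-N1869D samples and prp8-V1870N, against 1882 and 1613 in prp8-V1860N and prp8-V1860D, with 677 in PRP8-WT. The sums describe pairs chosen by this contrast. The highest level was in prp8-V1870N for 53 pairs, in the first prp8-N1869D sample for 47 and in the second for 28. Of the 128, 127 had reads in each technical library of the second prp8-N1869D sample, with medians of 13 and 14 reads. The sum of these libraries entered the contrast that chose the pairs, so this count was nearly fixed by the choice. In PRP8-WT, which the contrast did not use, 51 of the 128 had 0 reads and the median was 1 read, in the deepest library. PRP8-WT lay within or below the V1860 samples in 122 of the 128. It lay within the V1860 samples or beyond them in 592 of all 808 long pairs, and in 469 of the 679 not called.

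A pair on chromosome VII, plus strand, from 315976 to 317004, had 51, 37 and 51 reads in both prp8-N1869D samples and prp8-V1870N, against 1 and 0 in prp8-V1860N and prp8-V1860D, with 0 in PRP8-WT. The summed reads per lariat read were 137 times those of V1860, with a counting interval of 24.2 to 5459 (edgeR adjusted p = 0.00186). A pair on chromosome XI, minus strand, from 368983 to 367434 and antisense to RGT1, a regulator of glucose transporter genes, had 88, 30 and 11 reads, against 0 and 0, with 0 in PRP8-WT. It was at least 42.5-fold higher, with 3 reads over the group as the floor (edgeR adjusted p = 0.0151). Scaled to depth, both were highest in the first prp8-N1869D sample, at 39.3 and 67.8 CPM, and, among the 3, lowest in prp8-V1870N, at 24.5 and 5.29 CPM. Both are shown to compare their ends with those of introns, with the first 6 bases or the branch base in capitals (R64, chrVII:315970-315987, chrVII:316995-317010, chrXI:368972-368989, chrXI:367428-367443).
chromosome VII pair 5' end: atgaagGTGGGAatgggg
chromosome VII pair branch: tcgctaacaAtgactg
chromosome XI pair 5' end: tacggcGTTCATcaagca
chromosome XI pair branch: cgtggctgtAgtgaac

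Neither branch window holds the whole of TACTAAC, though the chromosome VII window holds its end, CTAAC. A pair on chromosome III, plus strand, from 209288 to 214037, had 173, 63 and 19 reads in both prp8-N1869D samples and prp8-V1870N, against 1 and 0, with 0 in PRP8-WT (ratio 252, counting interval 44.8 to 9983; edgeR adjusted p = 0.00935). A pair on chromosome IV, plus strand, from 382313 to 385881, had 95, 47 and 19 reads, against 0 and 1, with 1 in PRP8-WT (ratio 159, counting interval 28.1 to 6317). Both were highest in prp8-N1869D and lowest, among the 3, in prp8-V1870N. On chromosome XIV, minus strand, the pair from 635615 to 634930, which are 685 nt apart, had 57, 23 and 7 reads, against 0 and 0. The other 3 of the 8 largest increases lie on chromosomes II, V and VII. They had 52 to 56 reads in all on the side of N1869 and V1870 and 0 in both V1860 samples, and were at least 17.1-fold to at least 18.4-fold higher.

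The 21 unannotated pairs that fell held 1245, 1179 and 2621 reads together in both prp8-N1869D samples and prp8-V1870N, against 5354 and 4748 in prp8-V1860N and prp8-V1860D, with 9025 in PRP8-WT. Of these 21, 8 were mirror images of annotated introns, with 3793 of the 5045 reads on the side of N1869 and V1870. The 8 largest decreases by fold held few reads. On chromosome II, plus strand, the pair from 110844 to 110934 within IAI11 had 0, 2 and 4 reads in both prp8-N1869D samples and prp8-V1870N, against 24 and 27 in prp8-V1860N and prp8-V1860D, with 0 in PRP8-WT (log2 fold change -3.28, edgeR adjusted p = 0.0181). Here PRP8-WT stood with N1869 and V1870. A pair within RPL27A, on chromosome VIII, plus strand, from 126743 to 126836, had 2, 1 and 17 reads, against 40 and 48, with 121 in PRP8-WT (log2 fold change -2.46, edgeR adjusted p = 0.0422). A neighbouring pair in that gene, from 126837 to 127067, had 31, 12 and 39 reads, against 153 and 77, with 252 in PRP8-WT. The branch base of the first RPL27A pair is not an adenosine.

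A pair at an aberrant site of RPL16A, 29 nt upstream of the annotated one, had 6, 6 and 9 reads in both prp8-N1869D samples and prp8-V1870N. It had 27 and 37 in prp8-V1860N and prp8-V1860D, with 25 in PRP8-WT (log2 fold change -1.82, edgeR adjusted p = 0.0377). With all branch nucleotides within 2 nt, the site had 13, 12 and 18 reads, against 57 and 52, with 50 in PRP8-WT. The aberrant share of RPL16A was not called (log2 ratio -1.15, edgeR adjusted p = 0.0544). A mirror image of the RPL24B intron had 12, 4 and 15 reads, against 65 and 44, with 91 in PRP8-WT. The other 3 of the 8 largest decreases lie in SCR1, the RNA of the signal recognition particle, and antisense to RPS9B and RPL33A. They had between 12 and 19 reads on the side of N1869 and V1870, against 48 to 61 on the side of V1860. None of the 8 had more than 39 reads in a sample of N1869 and V1870.

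The 5 unannotated pairs with the most reads all missed the threshold. On chromosome VII, plus strand, the pair from 383486 to 383552 had 4325, 6017 and 6724 reads in both prp8-N1869D samples and prp8-V1870N, against 4266 and 5039 in prp8-V1860N and prp8-V1860D, with 6382 in PRP8-WT (log2 difference 0.66, edgeR adjusted p = 0.102). Its scaled levels did not overlap. Both other branch points of RCF3, 58 and 59 nt from its 5' splice site, also lay above without overlap, at log2 differences of 0.56 and 0.38 (adjusted p = 0.193 and 0.353). The BDF2 pair and the mirror image of the SNR17A intron overlapped, at adjusted p-values of 0.847 and 0.600.

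Summed over each class, unannotated reads per 100 annotated reads were higher in the N1869 and V1870 mutants in most classes. Long pairs gave 4.79, 4.97 and 6.71 in both prp8-N1869D samples and prp8-V1870N, against 2.36 and 3.13 in prp8-V1860N and prp8-V1860D, with 1.35 in PRP8-WT, a ratio of the means of 2.0. Pairs of over 200 and up to 1000 nt gave 1.26, 1.20 and 1.71, against 0.801 and 0.872, with 0.622 in PRP8-WT. Pairs of up to 200 nt gave 5.36, 5.57 and 4.75, against 3.80 and 3.52, with 3.56 in PRP8-WT. The samples of the sides did not overlap in any of the 3 classes.

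Other branch points of annotated 5' splice sites gave 1.99, 2.47 and 1.93 per 100 annotated reads in both prp8-N1869D samples and prp8-V1870N, against 1.59 and 1.59 in prp8-V1860N and prp8-V1860D, with 1.54 in PRP8-WT. Aberrant 5' splice sites gave 0.453, 0.477 and 0.448, against 0.397 and 0.330, with 0.421 in PRP8-WT. Without overlap, these 5 classes each had the smallest p that 3 against 2 samples allow, 0.1 (exact permutation test, two-sided; 0.16 after Benjamini-Hochberg adjustment over 8 classes), so the design could not reach 0.05. Mirror images did not overlap either, at 7.46, 7.39 and 6.98 against 6.81 and 6.76, with 6.66 in PRP8-WT (exact permutation p = 0.2). With all lariat reads as the denominator, mirror images overlapped. Mitochondrial pairs and those within 5 nt of the annotated site overlapped (exact permutation p = 0.7 and p = 1).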

How the data were processed

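Lariat reads were measured in 7 libraries from 6 samples of Saccharomyces cerevisiae. Per the labels' protocols, ribosomal RNA was removed from total RNA, and linear RNA was digested with RNase R. The tools were Trimmomatic and Bowtie2, with build R64, per the submitters' processing notes (versions not given in the sources used here). Raw counts of branch-spanning reads were deposited by the authors, for each annotated intron and for each 5' splice site joined to a branch point. Another 70 columns of per-sample values were not used.

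Annotated counts equalled the sum of their pairs in 280 of 280 introns. In the R64 reference used here 279 of 280 introns open with GT and the branch base is A in 279; sequences are from RefSeq, and positions count from 1. Technical libraries were summed. Introns and pairs were tested with edgeR 4.0.16 (R 4.3.3; TMM, filterByExpr, quasi-likelihood, Benjamini-Hochberg over all features, threshold 0.05). Shares were tested with a term per sample, where the 5 samples together held 20 or more aberrant reads. Tests were also run on simulated counts with the same spread for every sample. The sides here mix different mutants, so that run does not cover the spread between them. Intervals are exact Clopper-Pearson or exact conditional Poisson (95%), and the floor is 3 reads. Mirror images match an intron within 10 nt. Introns named are the 10 largest changes per direction past the threshold with at least 100 reads over the 5 samples, and the 5 with the most reads. Shares named are those past the threshold and the 10 with the most aberrant reads. Pairs named are the 8 largest non-overlapping changes per direction past the threshold with at least 50 reads, and the 5 with the most reads. List members named have the lowest p. Exceptions to their class (RPS14B, YML6) were named after their values were seen. Members, lists and rules were chosen with earlier results of these data known. Alternatives used DESeq2 1.42.0 and limma 3.58.1, other normalizations and filters, single technical libraries and left-out samples. List genes HOP2, MEI5, MND1, LSB3, CBC2 and YPT52 were not analysed here.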

Additional observations from a re-analysis of the deposited data

How the results depend on the processing

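Leaving out either V1860 sample ended every intron and share call; leaving out the second prp8-N1869D sample lowered the intron and pair counts, and leaving out prp8-V1870N raised them. Leaving out 1 sample at a time gave 0 to 84 higher and 0 to 60 lower introns (30 and 26 with all samples), 0 to 12 higher and 0 to 4 lower aberrant shares (14 and 5), and 84 to 281 higher and 5 to 204 lower pairs (177 and 66). Non-overlapping pairs then numbered 921 to 1412 higher and 1036 to 1459 lower (884 and 858 with all samples). A side left with 1 sample was assumed to vary like the other. With the prp8-N1869D samples summed, so that each strain counts once, 15 introns were higher and 16 lower, and 36 pairs lower. DESeq2 size factors gave 23 higher and 33 lower introns, and DESeq2's own test 27 and 35. Technical library 1 alone gave 39 lower pairs and 3 lower shares, and technical library 2 alone 9 higher and 2 lower shares. Total lariat reads as library size gave 19 lower pairs and 549 non-overlapping lower pairs, and reads per 10000 annotated reads 1322 higher and 457 lower. With a filter of at least 2 reads, 0 pairs were called in either direction, with 2801 higher and 5046 lower pairs not overlapping. Limma on log2 ratios gave 1 higher and 2 lower shares. Without a filter 8 shares were higher and 32 lay below without overlap, and with at least 50 aberrant reads 12 lay below. The median log2 fold change of introns with TACTAAC (0.03) was -0.0599 to 0.1228 when 1 sample was left out, -0.0579 with DESeq2 size factors and -0.0580 with DESeq2's test. The BDF2 pair (0.09) was -0.2352 to 0.2815 when 1 sample was left out and -0.0667 with at least 2 reads, and the SNR17A mirror image (-0.20) turned to 0.0039 with total lariat reads. The cause was not tested. Among named introns, 188 alternative values kept their call and 52 lost it; for named shares these were 121 and 95, and for named pairs 170 and 64, with 1 gained. The medians of ribosomal protein introns and of introns up to 150 nt and over 300 nt kept their direction in every alternative. No paired analysis was possible because the sides share fewer than 2 replicate numbers.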
